A study of Mus musculus with 12 samples.

Results

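The haemoglobin and red cell genes described here are Hba-a1, Hbb-b1, Hbb-b2, Eraf, Alas2 and Slc4a1, and their members were taken as every array probe whose gene name is one of these 6. This gave 9 of the 41174 probes, in 5 of the 6 genes, out of 22410 genes named on the array. Hba-a1 had 2 probes, Hbb-b1 had 4, and Eraf, Alas2 and Slc4a1 had 1 each. No probe was named Hbb-b2 alone, so that gene has no value of its own. The RNA came from lung tumours of mice of mixed C57/129 strain that carried the K-ras LSL-G12D allele, an oncogene held silent until Cre recombinase removes a stop cassette. Both kinds of animal received adenoviral Cre through the airways at 6 to 12 weeks of age, so the activated oncogene and the virus were shared by all groups. The KO tumours came from mice that also carried conditional Dnmt3a alleles, which Cre deletes, and the WT tumours from mice with intact Dnmt3a, a de novo DNA methyltransferase. The labels place the recombined alleles in lung cells. Whether red cells or their precursors also carried them was not tested. Each of 12 two-colour Agilent arrays compared KO with WT tumour RNA directly.

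By the labelled ages and sexes of both animals the arrays fell into 4 sets, pairs A to D. Pair A (4 arrays, replicates 1 to 4) compared a male KO of age 47.7 with a male WT of age 42.6. Pair B (4 arrays, replicates 5 to 8) compared a male KO of age 27 with a male WT of age 41.3. Pair C (2 arrays, replicates 9 and 10) compared a male KO of age 27 with a female WT of age 47.6, and pair D (2 arrays, replicates 11 and 12) a male KO of age 29.1 with a male WT of age 37.3. The labels state no unit for these ages. The series describes all 12 as biological replicates, but nothing says whether the arrays of a pair held different tumours or repeat hybridisations of one, so spread between arrays of a pair may be technical. The KO RNA carried Cy5 on 2 and Cy3 on 2 arrays in pairs A and B, Cy5 on both arrays of pair C and Cy3 on both of pair D. Pair A was on slide 1, pair B on slide 2, and pairs C and D shared slide 3.

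Red cells carry oxygen on haemoglobin, a tetramer of alpha and beta globin chains that each hold a haem. Globin messenger RNA is made in erythroid precursors in marrow and spleen and persists in reticulocytes, the youngest red cells of the circulation, so a solid tissue taken with its blood holds some of it. Hba-a1 encodes an adult alpha globin, and Hbb-b1 and Hbb-b2 the adult beta globins. Eraf, now called Ahsp, encodes a chaperone that binds free alpha globin chains. Alas2 encodes the erythroid form of the enzyme that starts haem synthesis. Slc4a1 encodes band 3, the anion exchanger that also anchors the skeleton of the red cell membrane. Adult alpha globin exists as near-identical gene copies, and C57 and 129 mice carry different arrangements of the adult beta globin genes, so a probe may read more than 1 copy.

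The stretch just upstream of a gene's start is where erythroid transcription factors are known to bind, and 3 of these promoters are shown because the globin promoters and that of Alas2 hold different words. They are the 150 bases before the annotated start on build GRCm38.p6, from RefSeq, read along the gene's own strand. Capitals mark CACCC (bound by Klf1-type factors), CCAAT and TATAA on either strand, and the word GATA on either strand where A or T stands before it and A or G after it. The promoter of Hbb-bt is shown for Hbb-b1, because RefSeq gives that name to the transcript that all 4 Hbb-b1 probes list. Alas2 and Hba-a1 are on the forward strand and Hbb-bt on the reverse strand.
Hba-a1 (chr11:32283522-32283671): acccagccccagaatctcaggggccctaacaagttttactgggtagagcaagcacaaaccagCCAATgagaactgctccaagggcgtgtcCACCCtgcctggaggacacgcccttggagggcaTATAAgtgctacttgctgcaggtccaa
Hbb-bt (chr7:103813924-103814073): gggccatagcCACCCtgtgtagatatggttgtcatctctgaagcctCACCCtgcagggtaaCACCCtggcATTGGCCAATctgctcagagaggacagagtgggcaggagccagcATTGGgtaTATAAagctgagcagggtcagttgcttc
Alas2 (chrX:150547267-150547416): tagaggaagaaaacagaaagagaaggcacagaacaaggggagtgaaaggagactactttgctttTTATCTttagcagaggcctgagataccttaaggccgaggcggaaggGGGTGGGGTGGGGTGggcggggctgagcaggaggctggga
Both globin promoters held a TATAA word close to the start, at -27 in Hba-a1 and at -28 in Hbb-bt, with CCAAT and CACCC further upstream. Hba-a1 held 1 CACCC and 1 CCAAT, and Hbb-bt held 3 of each, 2 of its CCAAT words back to back on opposite strands. Alas2 held neither CCAAT nor TATAA. It held 3 CACCC words in a row on the opposite strand and 1 GATA word at -86, written TTATCT here. Over the same 150 bases, CACCC was found in 37.4%, CCAAT in 24.5%, TATAA in 14.2% and a GATA word in 16.0% of 32851 RefSeq promoters, so each word alone is common. The promoters of Hba-a1 and Hba-a2 shared a run of 147 bases, while those of Hbb-bt and Hbb-bs, the other adult beta globin gene of that assembly, shared at most 14 in a row. The table of promoters held no entry for Slc4a1 and Ahsp.

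Values below are log2 ratios of KO over WT, where -1 is a halving in KO RNA, and levels are normalised log2 intensities. All 9 probes were well above the local background on 12 of 12 arrays for both KO and WT RNA, and none was saturated. Over all probes, 81.6% to 89.6% were well above background on slides 1 and 2 and 59.0% to 72.2% on slide 3. A probe is called changed where its adjusted p in limma, over 35562 kept probes, was below 0.05. As a check of the labels, the brightest Dnmt3a probe was lower in KO on 12 of 12 arrays, with ratios from -0.41 to -0.055 and a mean of -0.21 ± 0.045 (SE, limma adjusted p = 0.0217). Whether that probe lies in the deleted part of the gene was not tested. The 12 alveolar type 2 markers, which mark the surfactant-making cells of the lung, had a mean level of 14.3 to 15.5 in KO and 14.7 to 15.9 in WT RNA.

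Alpha globin was lower in KO than in WT RNA in pairs A, C and D and near equal in pair B. On the brighter Hba-a1 probe (A_52_P208681, chr11:32235937-32235996 on mm7, the build of the array annotation) the ratios in pair A were -2.67, -2.52, -2.29 and -2.42. In pair B they were 0.77, -0.075, 0.22 and -0.50. The 4 arrays of pair A thus lay close together and far below 0, and those of pair B spread on both sides of 0. In pair C the ratios were -2.02 and -1.86, and in pair D -2.71 and -1.45. The pair means, from A to D, were -2.48 ± 0.16 (SD, n = 4), 0.11 ± 0.54 (n = 4), -1.94 ± 0.11 (n = 2) and -2.08 ± 0.89 (n = 2). As folds, the KO level was 5.56 times lower in pair A, 3.84 times lower in pair C and 4.23 times lower in pair D. No array of pair B overlapped with any array of the other pairs. The second Hba-a1 probe (A_52_P278538, from 32235785 to 32235966) overlaps the first in position and gave pair means of -2.52, 0.11, -2.31 and -1.87.

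Beta globin was likewise below 0 on all arrays of pairs A, C and D. On the brightest Hbb-b1 probe (A_51_P374476, chr7:99864305-99864363 on mm7, reverse strand) the ratios in pair A were -3.17, -3.28, -2.67 and -2.94. In pair B they were 0.93, 0.27, 0.56 and -0.27. Pair A was below all arrays of pair B, and 3 of the 4 arrays of pair B were above 0. In pair C the ratios were -3.00 and -2.68, and in pair D -2.59 and -1.18. The pair means were -3.01 ± 0.27 (SD, n = 4), 0.37 ± 0.51 (n = 4), -2.84 ± 0.23 (n = 2) and -1.88 ± 1.00 (n = 2), which are KO levels 8.08, 7.14 and 3.69 times lower in pairs A, C and D. On replicate 12 all 4 Hbb-b1 probes and both Hba-a1 probes had ratios nearer to 0 than on replicate 11, the other array of pair D.

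**Figure D1:**
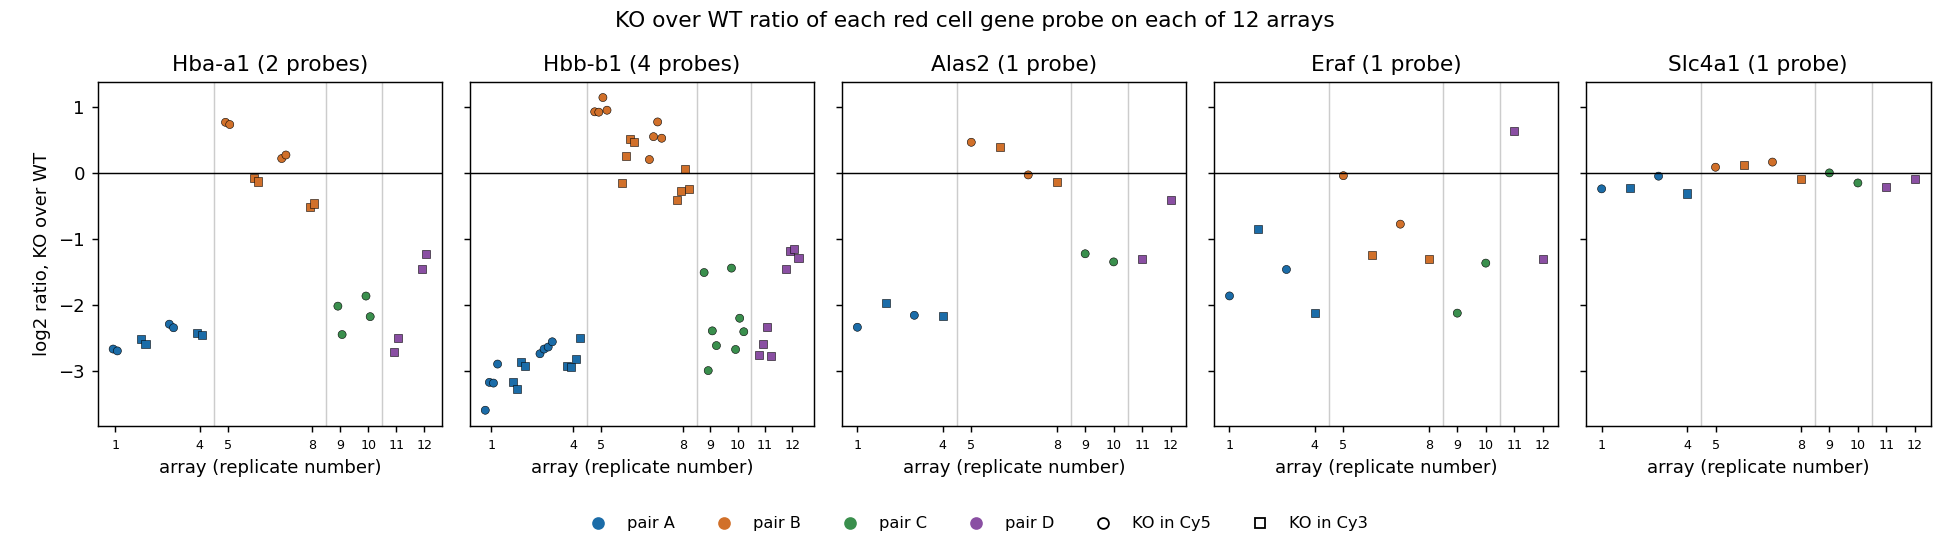
Log2 ratio of KO over WT RNA (vertical axis) on each of 12 arrays (horizontal axis, replicate number) for each of the 9 probes, 1 panel a gene. Colours are the 4 pairs, circles have the KO RNA in Cy5 and squares in Cy3. The Hba-a1, Hbb-b1 and Alas2 points lie far below 0 in pair A and near or above 0 in pair B, and the Slc4a1 points stay within 0.31 of 0.

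The levels in each RNA show that both members of a pair differed between pairs. The level of the brighter Hba-a1 probe in WT RNA was 14.8 to 15.1 in pair A, 12.9 to 13.7 in pair B, 13.8 to 14.0 in pair C and 13.7 to 14.7 in pair D. WT RNA of pair A was the highest without overlap, and WT RNA of pair B had the lowest mean and met the lower array of pair D. In KO RNA the levels were 12.3 to 12.8, 13.1 to 14.3, 11.8 to 12.2 and 12.0 to 12.2 in pairs A, B, C and D. Pair B was the highest of the KO RNAs without overlap. The KO RNAs of pair B and of pair C came from males of the same labelled age, and their alpha globin levels still did not overlap. The arrays were normalised within arrays, and for these levels the mean brightness was then scaled by quantiles to the same distribution on all arrays. That step leaves the ratios unchanged. A level set across slides thus rests on this scaling, and slide and pair cannot be told apart for pairs A and B.

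**Figure D2:**
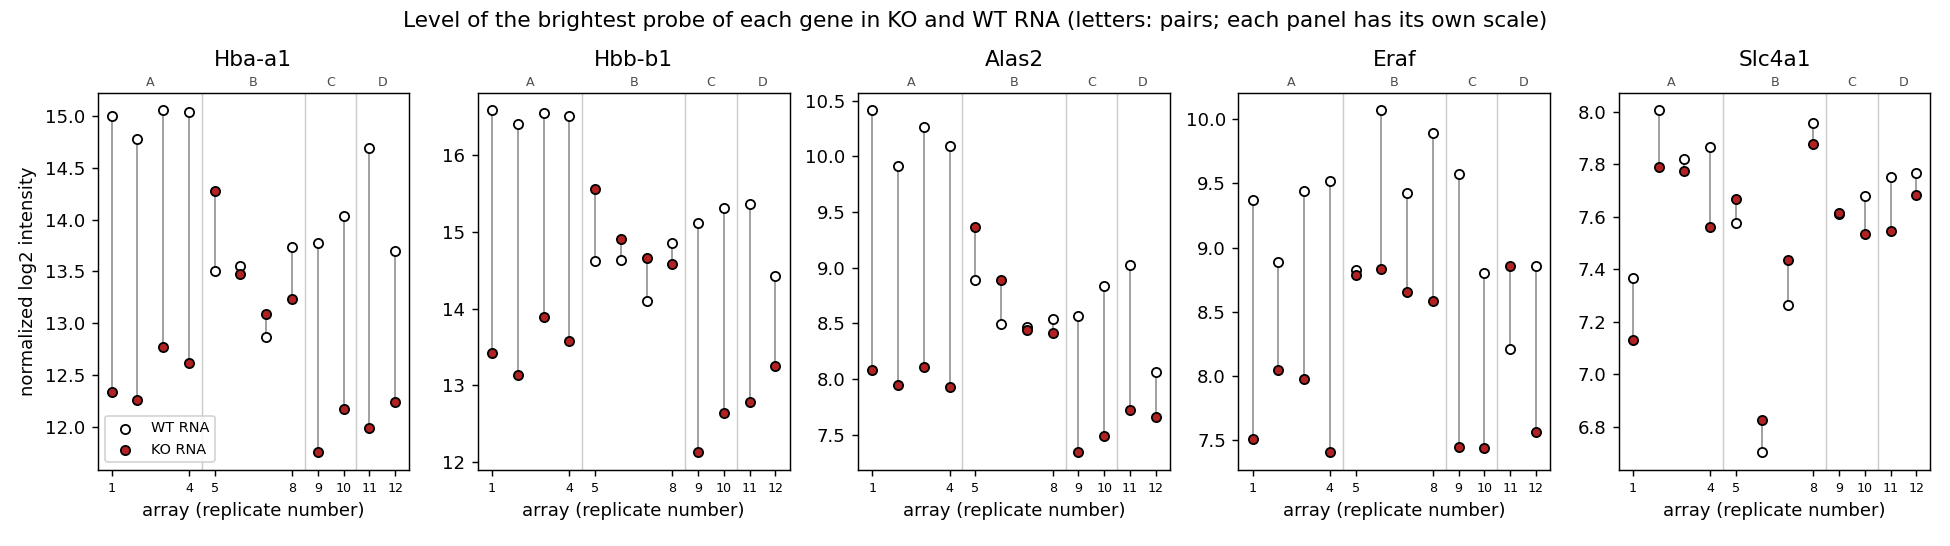
Normalised log2 intensity (vertical axis, its own scale in each panel) of the brightest probe of each gene in WT RNA (open circles) and KO RNA (filled circles) on each array (horizontal axis), joined by a line whose length is the log2 ratio. WT lies above KO on every array of pairs A, C and D for Hba-a1, Hbb-b1 and Alas2, and in pair B either RNA may be the higher.

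The 4 Hbb-b1 probes differed from each other in pair C alone by more than 1 log2 unit. The probe A_51_P374468 (chr7:99864621-99864680) had a mean ratio of -1.47 in pair C against -2.84 for A_51_P374476, a difference of 1.36. In pairs A, B and D the difference between these probes was -0.094, -0.22 and -0.22. A_52_P260346 (99864335 to 99864394), which overlaps A_51_P374476 in position, was at -2.51 in pair C, and A_52_P213909 (99863416 to 99863476) at -2.30. A_51_P374468 and A_52_P213909 also list the Hbb-b2 transcript, and the other 2 do not. The probe that moved least and the one next to it in pair C are thus those that list both beta globin genes. Pair C was the pair with a female WT animal and the KO RNA in Cy5 on both arrays, and which beta globin arrangement each animal of the mixed strain carried was not tested.

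Alas2, the erythroid enzyme of haem synthesis, was also below 0 on all arrays of pairs A, C and D, at a smaller size. Its ratios (A_51_P327451, chrX:145329125-145329184) were -2.34, -1.96, -2.16 and -2.16 in pair A and 0.47, 0.40, -0.024 and -0.13 in pair B. They were -1.22 and -1.35 in pair C, and -1.30 and -0.41 in pair D. All 8 arrays of pairs A, C and D were below all 4 of pair B. The pair means were -2.16 ± 0.15 (SD, n = 4), 0.18 ± 0.30 (n = 4), -1.28 ± 0.087 (n = 2) and -0.85 ± 0.63 (n = 2).

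Eraf, the chaperone of alpha globin, had a mean below 0 in pair B as well. Its ratios (A_52_P534583, listed without a position) were -1.86, -0.85, -1.46 and -2.12 in pair A and -0.036, -1.24, -0.77 and -1.31 in pair B. They were -2.12 and -1.36 in pair C, and 0.65 and -1.30 in pair D. Eraf was lower in KO on 11 of 12 arrays, and pair B, where the globins were near equal, had a mean of -0.84 ± 0.59 (SD, n = 4). On replicate 11 Eraf was the single probe of the 9 above 0, where the brighter Hba-a1 probe had its lowest ratio. The spot signals of Eraf in KO RNA, less the local background, were 118.9 to 603.7, so the same offset bears on its ratios too.

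Slc4a1, the band 3 anion exchanger, stayed close to 0. Its ratios (A_51_P196972, chr11:102457981-102458040, reverse strand) were -0.24, -0.22, -0.043 and -0.31 in pair A, and 0.093, 0.12, 0.17 and -0.080 in pair B. They were 0.0065 and -0.15 in pair C, and -0.20 and -0.085 in pair D. The sign of each pair's mean was that of the globins, at a far smaller size in pairs A, C and D. Its spot signals, less the local background, were between 49.8 and 273.9, and the offset of 50 added in the background correction draws the ratios of dim probes toward 0.

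Over all 12 arrays, 5 of the 9 probes were called lower in KO and 0 higher, where 5.71% of all kept probes were called, 2.88% lower and 2.83% higher. The called probes were both of Hba-a1, 2 of the 4 of Hbb-b1 and that of Eraf. The brighter Hba-a1 probe had a log2 ratio of -1.49 ± 0.34 (SE, n = 12, limma adjusted p = 0.0295), or 2.80 times lower, and was lower on 10 of 12 arrays. The brightest Hbb-b1 probe was at -1.70 ± 0.45 (adjusted p = 0.0472), or 3.25 times lower, on 9 of 12 arrays. The other Hbb-b1 probes were between -1.59 and -1.45, with adjusted p = 0.0415 for A_51_P374468 and 0.0528 and 0.0788 for the other 2. Eraf fell to -1.14 ± 0.25 (adjusted p = 0.0231), or 2.21 times lower. Alas2 at -1.02 ± 0.28 (adjusted p = 0.0580) and Slc4a1 at -0.078 ± 0.046 (adjusted p = 0.373) were not called.

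These calls take the arrays of a pair as nearly independent, since the correlation within pairs that the fit shares over all probes was 0.079. For the members it was 0.86 to 0.93 in the Hba-a1, Hbb-b1 and Alas2 probes, 0.59 in Slc4a1 and 0.18 in Eraf. For the brightest globin probes the SE above was 0.34 (Hba-a1) and 0.45 (Hbb-b1). With each pair as 1 value and no dye term it was larger, at 0.45 and 0.61. With each pair reduced to its mean (n = 4), 0 of 9 member probes were called in limma, with adjusted p between 0.169 and 0.636 and an unadjusted p under 0.05 in 8 of 9. In that fit 0.143% of all kept probes were called, 0.0815% lower and 0.0619% higher. The means over pairs were -1.60 ± 1.16 (SD) for Hba-a1, -1.84 ± 1.56 for Hbb-b1, -1.12 ± 0.66 for Eraf, -1.03 ± 0.97 for Alas2 and -0.085 ± 0.12 for Slc4a1. The exact two-sided sign-flip test over 4 pair means gave p = 0.25 for Hba-a1, Hbb-b1 and Alas2, 0.375 for Slc4a1 and 0.125 for Eraf, which is the smallest p that 4 pairs allow. The count of called members also turned on single arrays. It was 0 without replicate 12, 1 without replicate 1, 2, 3, 9 or 10, 2 without replicate 11, 3 without replicate 4 or 8, 4 without replicate 7, 7 without replicate 6 and 8 without replicate 5.

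The ratios differed between pairs more than any one figure for KO against WT conveys. In an F test over the 4 pairs (limma, adjusted over 35349 probes), 7 of the 9 probes passed, where 0.368% of all probes did. They were both probes of Hba-a1 (adjusted p = 0.0277 and 0.0240), all 4 of Hbb-b1 (0.0277, 0.0116, 0.0072 and 0.0202) and Alas2 (0.0165). Eraf (0.529) and Slc4a1 (0.373) did not pass. Several of the 7 read the same gene, so they are not separate results. With 1 probe a gene, 0.342% of the genes tested passed. The error of this test comes from arrays of the same pair, which may be repeat hybridisations. Its p thus does not measure the spread between tumours. Among all probes tested, the 7 ranked from 19 to 73 by their p. The other 3 scalings tested and the test without a filter on dim probes gave 7 as well. With 1 array left out the count was 2 to 4 for each of replicates 1 to 10, and 7 without replicate 11 or 12. Pairs differ in labelled ages, in the sex of the WT animal, in slide and in dye balance at once, and these cannot be told apart.

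Across the 12 arrays, the ratio of Hba-a1 followed that of Hbb-b1 with r = 0.97, Alas2 with r = 0.92 and Slc4a1 with r = 0.84. Its r with Eraf was 0.27, and Eraf had an r of 0.18 to 0.38 with each of the other 4. These 12 points fall in 4 pairs on 3 slides, so the correlations describe mostly the differences between pairs. The mean ratio of the 5 genes (brightest probe of each) was -2.06 to -1.72 in pair A, -0.46 to 0.45 in pair B, -1.67 and -1.48 in pair C and -1.23 and -0.88 in pair D.

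Among 17073 other genes, the 5 whose ratios were most like that mean over the 12 arrays were Pttg1, Pam, Zfp982, Osbpl3 and Rmdn1, with r from 0.95 to 0.88, and 2 of all genes compared were over 0.9. Pttg1, the securin that blocks the separation of sister chromatids until anaphase, had pair means of -1.20, 1.91, 0.16 and 0.22. Its sign in pairs C and D was thus opposite to that of the globins. Pam, an enzyme that amidates peptide hormones, had pair means of -2.75, 0.17, -1.75 and -1.16. Osbpl3, a lipid transfer protein, had -2.03, 0.18, -1.19 and -1.41. Zfp982 had -0.82, 0.80, -0.86 and 0.069, and Rmdn1 had 0.11, 0.73, 0.17 and 0.073. They were picked for this likeness out of all genes, so their r is a description.

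**Figure D3:**
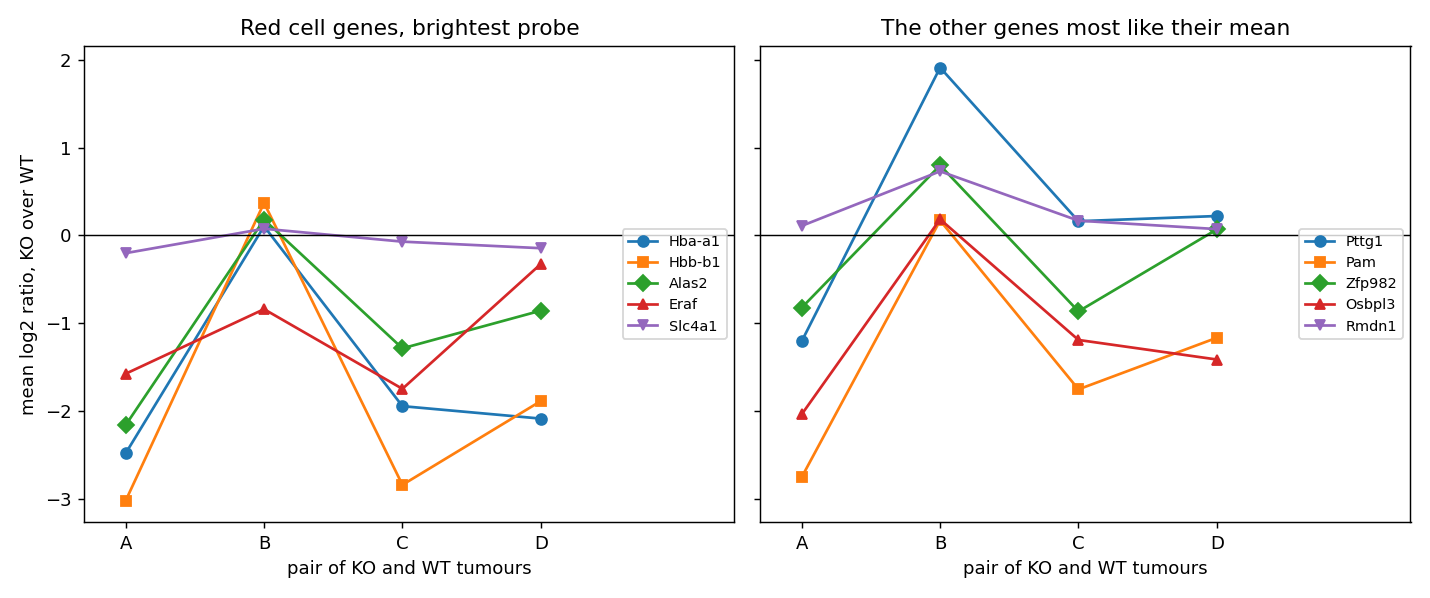
Mean log2 ratio of KO over WT (vertical axis) in each pair (horizontal axis; n = 4, 4, 2 and 2 arrays) for the brightest probe of each red cell gene (left) and for the 5 other genes most like their mean (right), with lines joining the points of a gene. Hba-a1, Hbb-b1 and Alas2 peak in pair B near 0, Eraf stays below 0 in every pair and Slc4a1 stays near 0.

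The other genes of the red cell pathway, taken as lists of 1 probe a gene, were fitted and adjusted apart from the probes above, over all 20597 genes tested. Of these, 694 (3.37%) rose and 777 (3.77%) fell, with a median ratio of -0.0056. Of 7 other globin genes 0 rose and 0 fell, with a median of 0.0041. The embryonic beta-type globin Hbb-y was nearest to the adult globins, with pair means of -0.76, 0.13, -0.57 and -0.69 and a ratio of -0.43 ± 0.13 (limma adjusted p = 0.0672). Cygb, a globin of fibroblasts, was at -0.42 ± 0.14 (adjusted p = 0.0860) and was below 0 in all 4 pairs. The embryonic alpha-type Hba-x (0.035), Hbq1 (0.052) and the embryonic Hbb-bh1 (0.0041) were near 0. Hba-a2, Hbb-bs and Hbb-bh0 had no probe of their own.

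Of 14 genes of haem synthesis and its mitochondrial carriers 0 rose and 0 fell, with a median of 0.056. Alas1, the housekeeping counterpart of Alas2, was at -0.25 ± 0.12 (limma adjusted p = 0.249), with pair means of -0.052, -0.11, -0.46 and -0.63. Ppox, which makes protoporphyrin, was at 0.36 ± 0.14 (adjusted p = 0.159), the porphyrin transporter Abcb6 at -0.38 ± 0.17 and Uros at 0.20 ± 0.10. In pairs A, C and D, where Alas2 was low, the medians of this list were 0.10, -0.13 and 0.014.

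Of 16 genes of the red cell membrane and its skeleton, Slc4a1 left out, 0 rose and 0 fell, with a median of -0.018. The skeletal protein Epb41 was at -0.20 ± 0.057 (limma adjusted p = 0.0549) and lower on 11 of 12 arrays, Gypc at -0.33 ± 0.11 (0.0891) and Tmod1 at -0.28 ± 0.10 (0.128). These 3 are also made outside the red cell lineage.

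Of 11 erythroid transcription factors 1 fell and 0 rose, with a median of -0.051. The one that fell was Tal1 (-0.52 ± 0.074, limma adjusted p = 0.00285, lower on 12 of 12 arrays), a factor used by red cell precursors and by endothelium. Gata1, the factor that defines the lineage, was at -0.051 ± 0.032 (adjusted p = 0.396), and Klf1, the activator of adult beta globin, at -0.022 ± 0.042 (0.821). Bach1 (-0.36 ± 0.14), Sox6 (0.78 ± 0.31) and Lmo2 (-0.16 ± 0.065) did not pass.

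Of 14 enzymes and other genes that are high in late red cell precursors 1 rose and 1 fell, with a median of 0.011. Catalase (Cat) rose by 0.78 ± 0.20 (limma adjusted p = 0.0389) and was above 0 on 12 of 12 arrays. Biliverdin reductase B (Blvrb) fell by 0.49 ± 0.13 (0.0402). Car1, the red cell carbonic anhydrase, was at -0.018 ± 0.041.

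Of 12 genes of the erythropoietin receptor and of iron uptake and storage 1 fell, ferritin heavy chain Fth1 (-0.50 ± 0.12, limma adjusted p = 0.0320), and 0 rose, with a median of 0.012. The iron regulator Ireb2 was at 0.40 ± 0.11 (0.0564). Of 9 genes that clear haemoglobin and haem 1 fell, the haem exporter of the lysosome Slc48a1 (-0.46 ± 0.11, 0.0294), and 0 rose, with a median of -0.22. Haem oxygenase Hmox1 was at -0.45 ± 0.13 (0.0630), with pair means of -0.71, -0.12, -0.69 and -0.33, and the haem-uptake receptor Lrp1 at -0.50 ± 0.14 (0.0534). None of the calls in these 7 red cell lists remained with pair means as single values.

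**Figure D4:**
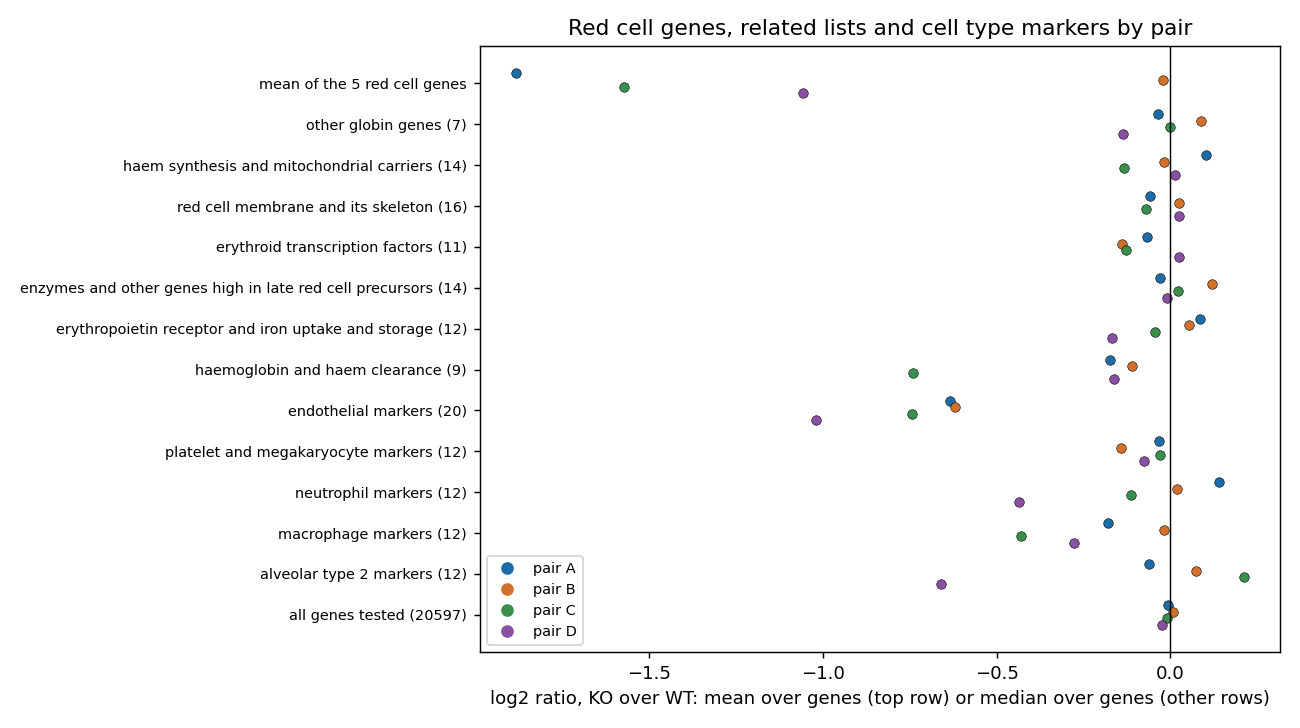
Log2 ratio of KO over WT (horizontal axis) in each pair (colours), as the mean of the 5 red cell genes in the top row and as the median over the genes of each list in the others (number of genes in brackets). The red cell genes lie between -1.89 and -1.06 in pairs A, C and D and near 0 in pair B, the endothelial markers are below -0.6 in all 4 pairs, and the other red cell lists have pair medians from -0.17 to 0.12, except the clearance genes, which lie at -0.18, -0.11, -0.74 and -0.16 in pairs A to D.

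Markers of other cells in the tissue were measured beside these genes. Of 20 endothelial markers 18 fell and 0 rose (4 fell with pair means as single values), with a median of -0.75, and their list medians were -0.64, -0.62, -0.74 and -1.02 in pairs A to D. The endothelial level, as a mean over markers, was 10.0 to 10.5 in KO and 10.7 to 11.6 in WT RNA without overlap. The junction protein Cdh5 (-0.83 ± 0.075, limma adjusted p = 0.000363), Pecam1 (-0.65 ± 0.060), Erg (-0.998 ± 0.097) and Ramp2 (-0.95 ± 0.097) fell on 12 of 12 arrays each. Endothelial markers were thus lower in pair B as well, where the globins and Alas2 were not. Their part in the globin ratios was not tested.

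Of 12 platelet markers 1 rose, the platelet chemokine Pf4 (1.74 ± 0.41, limma adjusted p = 0.0297, higher on 11 of 12 arrays), and 1 fell, Gp9 (-0.33 ± 0.088, 0.0436). Ppbp (-0.21 ± 0.066) and Clec1b (-0.51 ± 0.16) did not pass, and the list median was -0.072. Of 12 neutrophil markers 1 rose (Mmp8, 0.74 ± 0.19, 0.0368) and 0 fell, with a median of -0.053. The 12 macrophage markers had a median of -0.21. Of 12 alveolar type 2 markers 2 fell, Etv5 (-0.59 ± 0.14, 0.0336) and Lamp3 (-0.78 ± 0.19, 0.0391), and 0 rose, with a median of -0.056. With pair means as single values 0 of the platelet, neutrophil and type 2 markers were called. The mean levels in KO and WT RNA overlapped for each of these 4 lists, with platelet levels of 7.82 to 8.09 and 7.72 to 8.25. In whole tumour RNA, fewer red cells, less globin RNA in each and less blood left in the sample cannot be told apart. Whether other cells of the tumour held part of the globin RNA was not tested.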

How the data were processed

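Mean spot intensities and local background intensities were deposited as scanned, made with Agilent Feature Extraction 10.1.1.1 on array design 014868, per the file headers, and the deposited flags were taken as given. The authors' log2 ratios in the series matrix name limma as their tool in the submitters' processing notes. Their scale and direction matched the scanner values (r from 0.991 to 0.997 per array). Their median per array was between -0.011 and 0.0078, while the step that centred them stays unknown. Background was corrected with normexp (offset 50), taking an array's median where a local background was itself flagged as outlying, and normalised by loess within arrays. Levels, but not the ratios of the main fit, were further normalised between arrays (Aquantile). Control spots and outlier spots (86 to 828 per array) had weight 0. Ratios were then turned to KO over WT.

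Probes well above background for KO or WT RNA on at least 6 of 12 arrays were kept (35562 of 41174). The fit (R 4.3.3, limma 3.58.1, statmod 1.5.0) had a dye term and pairs as random blocks (correlation 0.079) estimated on turned ratios, with Benjamini-Hochberg adjustment over all kept probes for the member probes and Dnmt3a. A fit with 1 coefficient per pair gave the F test, over the 35349 kept probes measured on all arrays. For lists and likeness, genes were represented by their brightest kept probe and refitted, with adjustment over 20597 genes. Of the probes, 22951 were named through a RefSeq accession, 11758 by the file only, and 6465 had no name. The steps were tested on simulated data whose correlation within pairs was set near the shared value of 0.079. That is far below the correlation of the Hba-a1, Hbb-b1 and Alas2 probes, so the simulation does not test the calls of those probes.

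Named were all member probes, Dnmt3a, up to 4 genes of smallest p of each list with any of an opposite call, and the 5 genes most like the members' mean; Hbb-bh1, Gata1, Klf1 and Car1 were added for their role after their values were seen. The members and lists were chosen with earlier results of these data known. The number of arrays and pairs limits the precision. Alternatives covered background, scaling, filter, block, dye term, variance model, and arrays, pairs and slides left out. Some genes that this rule names are not reported here.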

Additional observations from a re-analysis of the deposited data

Results flagged for a closer look

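The log2 ratio of KO over WT differed between the 4 pairs of ages and sexes in 7 of the 9 red cell probes, by the F test of the differences themselves (limma, adjusted over all 35349 probes tested). The adjusted p was 0.0277 and 0.0240 for the 2 Hba-a1 probes and 0.0165 for Alas2. For the Hbb-b1 probes it was 0.0277 (A_51_P374468), 0.0116 (A_51_P374476), 0.0072 (A_52_P213909) and 0.0202 (A_52_P260346). The error of this test comes from arrays of the same pair, which may be repeat hybridisations, so its p does not measure the spread between tumours. By the plain mean over its arrays, pair A was the most negative and pair B the pair above 0 in each of these probes. In the 18 sets of 4 arrays examined, no array lay apart from the others of its pair by Dixon's test, and pairs of 2 arrays could not be examined.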

How the results depend on the processing

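The direction of the 5 genes held in every alternative except within slide 2, which holds pair B alone. There the ratio was 0.11 for both Hba-a1 probes, 0.37, 0.15, 0.63 and 0.43 for the Hbb-b1 probes A_51_P374476, A_51_P374468, A_52_P213909 and A_52_P260346, 0.18 for Alas2, 0.077 for Slc4a1 and -0.84 for Eraf (limma adjusted p = 0.171). Within slide 1 Hba-a1 was -2.48, Hbb-b1 -3.01 (both adjusted p = 0.0870) and Eraf -1.57 (0.161), and within slide 3, where dye and pair cannot be told apart, -2.01 (0.107), -2.36 (0.105) and -1.03 (0.310). Probes, member probes and genes called were 0, 0 and 0 within slides 1 and 3 and 1, 0 and 1 within slide 2. Those counts were 2032, 5 and 1471 as reported.

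Median centring gave Hba-a1 -1.41 (adjusted p = 0.0759), Hbb-b1 -1.63 (0.117) and Eraf -1.10 (0.0867), counts of 486, 0 and 359, and 364 probes that differed between pairs against 130. Pair means as single values gave -1.60 (0.216), -1.84 (0.264) and -1.12 (0.169), and counts of 51, 0 and 48. A variance trend with robust shrinkage left the ratios at -1.49 (0.0572), -1.70 (0.0756) and -1.14 (0.0501), with counts of 625, 0 and 601. With no replicate block 3269 probes and 2211 genes were called and Alas2 passed (-1.01, 0.0482). With the replicate block estimated on ratios not turned 3228 probes were called and Alas2 passed (-1.02, 0.0470).

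Hbb-b1 missed the threshold with no background correction (-1.70, 0.0539), the local backgrounds as deposited (-1.66, 0.0607), no filter (-1.70, 0.0524) and array weights (-1.45, 0.0830), and Eraf with the deposited backgrounds (-0.74, 0.0588). These backgrounds gave 2 called member probes and array weights 3. Alas2 passed with Agilent's processed signals (-1.32, 0.0368), which gave 221 probes differing between pairs, and on probes well above background on 12 of 12 arrays (-1.02, 0.0461).

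Without pair A the ratios were -1.01 (0.255), -1.07 (0.368) and -0.94 (0.171) for Hba-a1, Hbb-b1 and Eraf, and the counts 577, 0 and 400. Without pair B the counts were 1191, 8 and 917, and Alas2 passed (-1.60, 0.0190). Without pair C the ratios were -1.32 (0.115), -1.38 (0.177) and -1.01 (0.0831) and the counts 1183, 0 and 839. Without pair D Hba-a1 was -1.36 (0.0989), Hbb-b1 -1.64 (0.133), and the counts 1268, 1 and 974. With single arrays left out Hba-a1 ranged from -1.66 to -1.37, Hbb-b1 from -1.91 to -1.56, Eraf from -1.33 to -1.05, Alas2 from -1.15 to -0.93 and Slc4a1 from -0.100 to -0.061. Called probes ranged from 1053 to 2686, member probes from 0 to 8 and genes from 778 to 1818. Probes that differed between pairs ranged from 29 to 512 and member probes among them from 2 to 7; these last, and the lists with pair means and without pair B, were added after the data were seen. The endothelial count of 18 falls was 14 with median centring, 16 without pair B and 4 with pair means. The cause of these changes was not tested. Every ratio sets KO against WT RNA on 1 array, and the replicate block is the pair of ages and sexes.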
